A study of Homo sapiens with 12 samples.

Results

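Transcripts of 10 genes of pericellular proteolysis were followed in SW13 cells with and without BRG1, before and after UV radiation. The genes are the matrix metalloproteases MMP1, MMP2, MMP3, MMP9, MMP10 and MMP14, the tissue inhibitors of metalloproteases TIMP1, TIMP2 and TIMP3, and PLAU, which encodes urokinase. They were taken from the array by symbol: 21 of the 54675 probe sets on the array were assigned to 1 of these 10 genes. A probe set was tested when its signal reached the median of its array on at least 3 of the 12 arrays, which held for 13 of the 21, and every one of the 10 genes kept at least 1. In all, 32622 probe sets and 13834 genes were tested.

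SW13 is a human cell line from an adrenal cortical carcinoma that makes little or no BRG1, the ATPase of SWI/SNF chromatin remodeling complexes encoded by SMARCA4. The 4 groups, of 3 arrays each, were SW13+BRG1 cells given UV-C, SW13+BRG1 cells given a mock treatment, SW13+vector cells given UV-C and SW13+vector cells given a mock treatment. UV was given at 10 J/m2 and RNA was collected 6 h after either treatment. SW13+vector cells carry the empty pREP7 plasmid and SW13+BRG1 cells carry pREP7 with BRG1 isoform C. The methods name 1 stable line of each kind, so the 3 arrays of a group repeat 1 line, and an effect of BRG1 cannot be told apart from any other difference between these 2 lines. The replicates are described as independent biological ones, and the p-values measure the spread between them.

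Matrix metalloproteases are zinc enzymes that are secreted or held at the cell surface as inactive proenzymes and that, once activated, cut collagens, proteoglycans and other proteins of the extracellular matrix. TIMPs bind the active enzymes and block them, and TIMP2 also takes part in the activation of pro-MMP2 by the membrane protease MMP14. Urokinase turns plasminogen into plasmin, a broad protease that degrades fibrin and can activate several pro-MMPs. In tumor cells this system is best known for its part in invasion. The arrays measure RNA only, so none of the values below is a level of protein or of enzyme activity.

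The arrays were alike in brightness, with median signals of 21.1 to 25.3, and signal intensities in arbitrary MAS units are given throughout. Log2 signals correlated at 0.879 to 0.917 over 12 within-group pairs of arrays and at 0.818 to 0.893 over the 54 pairs between groups. The probe sets of SMARCA4 itself disagreed on the lines at the RNA level. Of its 7 tested probe sets 1 was called lower and 0 higher in mock-treated SW13+BRG1 cells, and 0 were called lower and 1 higher after UV. The lower one was its brightest, at a log2 fold change of -1.28 without UV (limma adjusted p = 0.0459) and -1.22 with UV (0.0511). Another was lower by less than 2-fold, at -0.77 and -0.78. The one called higher was at 0.62 without UV and 2.20 with UV. Where in the transcript these probe sets lie, and whether the plasmid carries those parts, the sources used here do not say, so the labels, which rest on the protein, were not checked by the arrays. Group names below are the labels. SMARCA2, which encodes the alternative ATPase BRM, had 0 of 2 tested probe sets called in either comparison. None of 9 adrenal cortex marker genes reached the median signal on every array, and their summed signal was 79.4 to 172 over the 12 arrays.

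The DNA before the start of transcription is shown for 4 genes. MMP10 and MMP7, from the same chromosomal cluster, hold matches to the same AP-1 and TATA motifs at nearly the same places. MMP7 also holds ETS matches, 2 to AGGAAG and 1 to GAGGAA, and MMP10 holds none. MMP20, of the same cluster and not printed, holds AP-1 and TATA matches too, at other places. Of the 9 genes of the cluster 5 have a window, and not all of these hold both motifs. MMP8 holds 1 TATAAA and 1 GAGGAA and no AP-1 match, and MMP27 holds no match to any motif searched. The window of TIMP1 and 1 of the 2 windows of PLAU hold ETS matches. Whether any of these matches bears on the line differences was not tested. The sequences are the 250 bases before the start in RefSeq's annotation of GRCh38.p14, read 5′ to 3′ on the strand of the gene, and capitals mark matches on either strand to the AP-1 motif TGANTCA, to TATAAA, the box of many core promoters, and to AGGAAG or GAGGAA, which ETS factors bind. They run from chr11:102780629-102780878 (minus strand) for MMP10, chr11:102530748-102530997 (minus strand) for MMP7, chr10:73910882-73911131 (plus strand) for the second of 2 annotated starts of PLAU, and chrX:47582186-47582435 (plus strand) for TIMP1. The window of the other PLAU start, chr10:73910360-73910609 (plus strand), held 0 matches to any motif searched and is not printed.
MMP10: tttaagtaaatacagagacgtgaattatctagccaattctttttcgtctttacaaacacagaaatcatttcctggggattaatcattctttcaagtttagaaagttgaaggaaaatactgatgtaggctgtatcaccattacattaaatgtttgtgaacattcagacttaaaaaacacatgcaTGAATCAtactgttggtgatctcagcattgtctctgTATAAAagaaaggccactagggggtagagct
MMP7: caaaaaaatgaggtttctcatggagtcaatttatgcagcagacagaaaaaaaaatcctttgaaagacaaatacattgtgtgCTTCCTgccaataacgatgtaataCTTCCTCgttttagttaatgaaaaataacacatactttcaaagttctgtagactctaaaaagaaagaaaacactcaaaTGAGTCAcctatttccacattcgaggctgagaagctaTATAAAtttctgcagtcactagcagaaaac
PLAU: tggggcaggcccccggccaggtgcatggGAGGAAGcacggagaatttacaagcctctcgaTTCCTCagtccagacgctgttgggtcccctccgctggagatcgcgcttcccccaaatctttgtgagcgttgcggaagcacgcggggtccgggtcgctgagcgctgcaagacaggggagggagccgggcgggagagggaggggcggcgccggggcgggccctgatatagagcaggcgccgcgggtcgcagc
TIMP1: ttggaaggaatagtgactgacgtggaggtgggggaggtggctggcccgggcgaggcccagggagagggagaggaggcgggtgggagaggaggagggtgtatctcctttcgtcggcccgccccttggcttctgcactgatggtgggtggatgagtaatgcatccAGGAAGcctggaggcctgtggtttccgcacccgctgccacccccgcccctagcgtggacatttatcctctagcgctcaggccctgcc

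In MMP10 the AP-1 match lay at -67 to -61 and the TATAAA match at -31 to -26, counted back from -1 at the last base before the start. In MMP7 they lay at -67 to -61 and -30 to -25, and in MMP20 at -112 to -106 and -72 to -67. Of 35116 such windows of 27305 genes, 6.57% held TGANTCA, 10.7% held TATAAA and 1.07% held both. The printed PLAU window held GAGGAAG, where AGGAAG and GAGGAA overlap, a second GAGGAA on the other strand and 3 matches to GGGCGG (SP1). The TIMP1 window held 1 AGGAAG and 2 GGGCGG. The windows of TIMP3 and MMP14 held 5 and 1 GGGCGG and none of the other motifs. AGGAAG stood in 28.7% of all windows, GAGGAA in 23.6% and GGGCGG in 42.6%. A match is only a match of letters, and no binding was measured here. Of the 10 genes, 5 have a window in the table used; MMP1, MMP2, MMP3, MMP9 and TIMP2 are named only.

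Without UV, cells labelled SW13+BRG1 had far less MMP10, MMP3 and MMP1 RNA than SW13+vector cells and far more PLAU, MMP2 and TIMP2 RNA, while MMP9, MMP14, TIMP1 and TIMP3 were not called. A gene was called when limma gave a Benjamini-Hochberg adjusted p under 0.05, over all tested probe sets, and a fold change over 2. By this rule 3 of the 10 genes were higher and 3 were lower in mock-treated SW13+BRG1 cells, where 9.05% of all tested genes were called higher and 5.09% lower. After UV the same 3 were higher and the same 3 lower, against 9.56% and 6.61% of all tested genes. Of the 3 higher genes, PLAU passed the filter only through SW13+BRG1. In the 10 genes the median size of the log2 difference between the lines was 2.22 without UV and 2.23 with UV, and over all tested genes it was 0.45 and 0.50. In such whole-culture RNA, fewer cells that make a transcript and less of it per cell cannot be told apart. The signals of the 2 lines did not overlap for 6 of the 10 genes without UV and for 6 with UV, where 41.3% and 45.3% of all tested genes did not overlap.

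**Figure D1:**
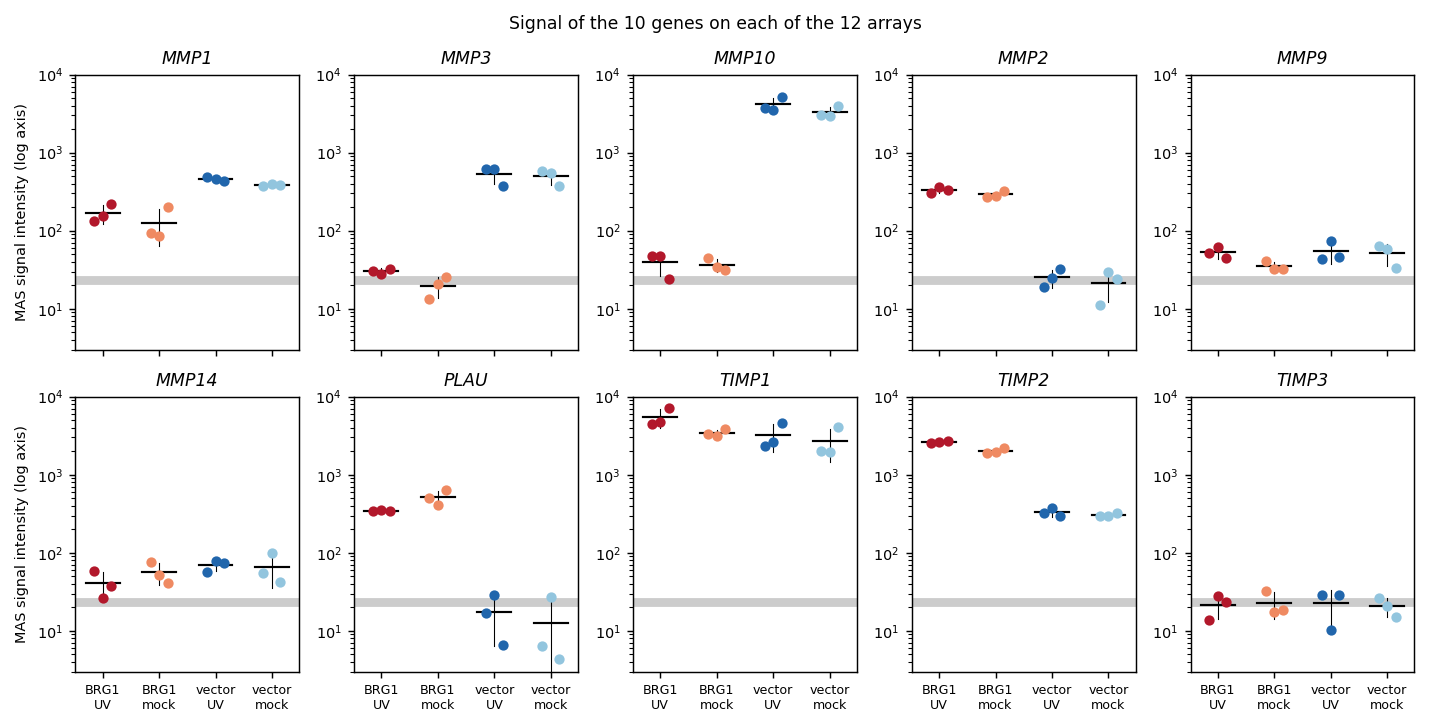
Signal intensity of the brightest probe set of each gene, on a log axis, on the 12 arrays of the 4 groups; points are arrays, horizontal lines are group means, vertical lines are SDs (cut where they pass the lower axis) and the gray band spans the array medians of 21.1 to 25.3. MMP1, MMP3 and MMP10 sit lower and MMP2, TIMP2 and PLAU higher on all 6 SW13+BRG1 arrays than on any of the 6 SW13+vector arrays.

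MMP10 (stromelysin-2, which cleaves proteoglycans, fibronectin and several collagens and activates other pro-MMPs) was far lower on all SW13+BRG1 arrays. Its signals were 44.7, 33.8 and 31.6 on the mock-treated SW13+BRG1 arrays, against 2995, 2957 and 3942 on the mock-treated SW13+vector arrays. After UV they were 47.9, 47.6 and 24.1 in SW13+BRG1 and 3762, 3545 and 5101 in SW13+vector. All 6 SW13+BRG1 arrays were therefore at most 47.9 and all 6 SW13+vector arrays at least 2957. The log2 fold change was -6.49 (SE 0.26, adjusted p = 2.09e-09) without UV, which is 90.1-fold lower in SW13+BRG1, and -6.75 (SE 0.26, adjusted p = 1.63e-09) with UV, which is 107-fold lower. The MMP10 signal on the SW13+BRG1 arrays was still at or above the array median in 6 of 6.

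MMP3 (stromelysin-1, a close relative of MMP10 with a similar range of substrates) followed the same pattern at a lower signal. It was 13.3, 20.7 and 25.3 in mock-treated SW13+BRG1 cells, against 588, 545 and 368 in mock-treated SW13+vector cells. With UV the signals were 30.8, 27.9 and 32.7 in SW13+BRG1 and 621, 618 and 376 in SW13+vector. The third array of SW13+vector was the lowest of its group under both treatments, and still more than 10 times any SW13+BRG1 array. The log2 fold change was -4.68 (SE 0.29, adjusted p = 1.03e-07) without UV and -4.11 (SE 0.29, adjusted p = 3.61e-07) with UV, which is 25.7-fold and 17.3-fold lower. MMP3 reached the array median on 4 of 6 SW13+BRG1 arrays, so the size of these folds rests on dim signals.

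MMP1 (interstitial collagenase, which makes the first cut in fibrillar collagens) was lower by a smaller factor. Its signals were 94.6, 86.2 and 201 on mock-treated SW13+BRG1 arrays, against 379, 396 and 386 on mock-treated SW13+vector arrays. They were 134, 154 and 222 in SW13+BRG1 and 486, 460.1 and 431 in SW13+vector after UV. The third SW13+BRG1 array was the highest of its group under both treatments, and the lines did not overlap. The log2 fold change was -1.72 (SE 0.28, adjusted p = 0.000564), or 3.28-fold lower, without UV. It was -1.47 (SE 0.28, adjusted p = 0.0016), or 2.77-fold lower, with UV.

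MMP2 (gelatinase A, which degrades gelatin and the type IV collagen of basement membranes) differed in the other direction. Its signals were 273, 281 and 319.8 in mock-treated SW13+BRG1 cells, against 11.1, 29.4 and 24.2 in mock-treated SW13+vector cells. After UV they were 304, 360.1 and 333 in SW13+BRG1, against 18.9, 24.8 and 31.9 in SW13+vector. All 6 SW13+BRG1 arrays lay above all 6 SW13+vector arrays. The SW13+vector signals lie around the array median, where MAS signals of transcripts that are present and absent can look alike. The log2 fold change was 3.87 (SE 0.33, adjusted p = 2.15e-06), or 14.6-fold higher, without UV and 3.75 (SE 0.33, adjusted p = 2.88e-06), or 13.5-fold higher, with UV. MMP2 has 2 other probe sets, neither of which was tested; one was below the array median on all 12 arrays at 6.18 to 23.0, and the other on all 12 at 0.79 to 16.2. The call therefore rests on 1 probe set.

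MMP9 (gelatinase B) and MMP14 (a membrane-bound collagenase and the activator of pro-MMP2) did not differ by this rule. MMP9 averaged 35.1 ± 5.0 in mock-treated SW13+BRG1 cells and 51.7 ± 16.1 in mock-treated SW13+vector cells (SD, n = 3 each), and after UV 52.9 ± 8.97 in SW13+BRG1 and 54.6 ± 17.1 in SW13+vector. Its log2 fold change between the lines was -0.51 (95% interval -1.23 to 0.20) without UV and -0.02 (-0.74 to 0.70) with UV. MMP14 averaged 56 ± 17.5 in mock-treated SW13+BRG1 cells and 64.9 ± 29.6 in mock-treated SW13+vector cells. After UV it averaged 40.6 ± 16.1 in SW13+BRG1 and 69.9 ± 12.1 in SW13+vector. Its log2 fold change was -0.16 (-1.0 to 0.67) without UV and -0.84 (-1.68 to -0.01, adjusted p = 0.142 by limma) with UV. The lower ends of these intervals pass a 2-fold difference for MMP9 without UV and MMP14 with UV. That of MMP14 without UV falls just short of it. The 3 other probe sets of MMP14 lay at 2.55 to 30.1 and were not tested.

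PLAU (urokinase-type plasminogen activator) was bright in SW13+BRG1 cells and at or below the array median on most SW13+vector arrays. Its brightest probe set gave 501, 404 and 629 in mock-treated SW13+BRG1 cells, against 6.4, 27.5 and 4.38 in mock-treated SW13+vector cells. After UV it gave 347, 354 and 339 in SW13+BRG1 and 17, 28.5 and 6.52 in SW13+vector. The second array of SW13+vector was the highest of its group in both treatments. The log2 fold change was 5.78 (SE 0.61, adjusted p = 1.59e-05) without UV and 4.56 (SE 0.61, adjusted p = 0.000112) with UV. The probe set reached the array median on 6 of 6 SW13+BRG1 arrays and 2 of 6 SW13+vector arrays, so it passed the filter only through SW13+BRG1. Leaving out the second mock-treated SW13+vector array gave 6.57 without UV, and leaving out the third UV-treated SW13+vector array gave 3.98 with UV, both still called. A second PLAU probe set gave 4.94 (SE 0.56) and 5.16 (SE 0.56) and was also called in both; it reached the array median on 6 of 6 SW13+BRG1 arrays and 0 of 6 SW13+vector arrays, so it too entered the test only through SW13+BRG1.

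TIMP2 (an inhibitor of most MMPs) was the inhibitor that differed. Its brightest probe set gave 1891, 1965 and 2172 in mock-treated SW13+BRG1 cells, against 294, 299.8 and 319.8 in mock-treated SW13+vector cells. After UV the signals were 2577, 2618 and 2672 in SW13+BRG1 and 323, 375 and 297 in SW13+vector. The lines were far apart and the replicates close, and the log2 fold change was 2.72 (SE 0.11, adjusted p = 2.86e-09), or 6.59-fold higher, without UV and 2.99 (SE 0.11, adjusted p = 1.5e-09), or 7.95-fold higher, with UV. The 2 other TIMP2 probe sets were called in the same direction, with log2 fold changes of 2.92 and 1.8 without UV and 3.32 and 1.95 with UV.

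TIMP1 (a secreted inhibitor with a preference for MMPs other than the membrane-type ones) was bright in all groups. Its signals were 3313, 3112 and 3828 in mock-treated SW13+BRG1 cells and 2004, 1960.2 and 4085 in mock-treated SW13+vector cells. UV-treated SW13+BRG1 cells had 4492, 4784 and 7169 and UV-treated SW13+vector cells 2323, 2643 and 4589. The third array was the highest in each of the 4 groups, and the lines overlapped under both treatments. After UV each SW13+BRG1 array was above the SW13+vector array of the same number. Without UV this did not hold for the third. The log2 fold change was 0.43 (SE 0.29, adjusted p = 0.365) without UV and 0.82 (SE 0.29, adjusted p = 0.0616) with UV. Without the third UV-treated SW13+vector array the value with UV was 1.11 with an adjusted p of 0.0147, which passes the rule. TIMP3 (an inhibitor bound to the extracellular matrix) stayed near the array median in every group, at 22.6 ± 8.41 in mock-treated SW13+BRG1 and 20.8 ± 5.59 in mock-treated SW13+vector cells. After UV it stood at 21.7 ± 7.44 in SW13+BRG1 and 22.7 ± 10.7 in SW13+vector cells. Its log2 fold changes of 0.10 and 0.02 had 95% intervals of -1.07 to 1.27 and -1.15 to 1.19, which include a 2-fold difference in either direction. Its 3 other probe sets lay at 1.28 to 35.1 and were not tested.

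**Figure D2:**
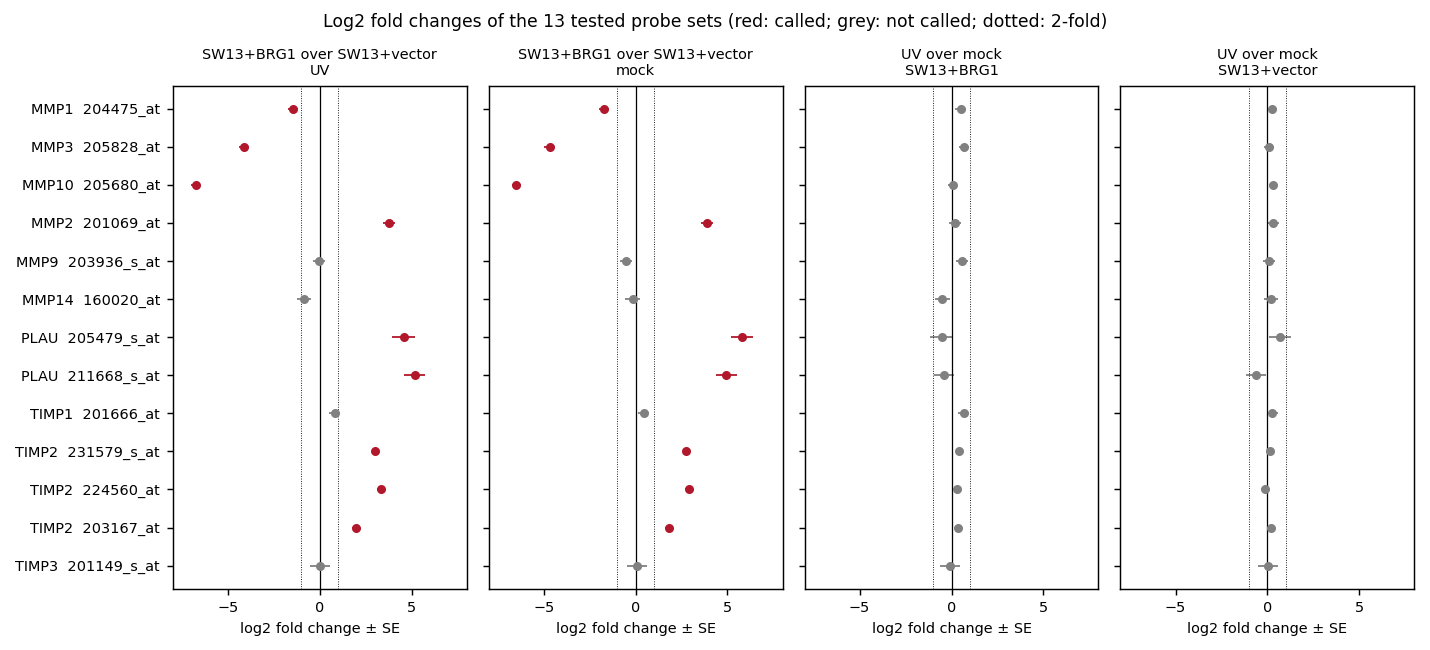
Log2 fold change with SE of the 13 tested probe sets of the 10 genes in the 2 line comparisons (SW13+BRG1 over SW13+vector, with UV and mock) and the 2 UV comparisons (UV over mock, in SW13+BRG1 and SW13+vector); red points were called, gray points were not, and dotted lines mark a fold of 2. The line comparisons hold 9 called probe sets each, 6 higher and 3 lower, and the UV comparisons none.

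Over the 13 tested probe sets 6 were called higher and 3 lower without UV, where 7.69% and 4.3% of all tested probe sets were. With UV the counts were again 6 and 3, where 7.68% and 5.97% of all tested probe sets were. The 6 higher ones include 3 of TIMP2 and 2 of PLAU, so these counts are not of separate genes. Both of PLAU passed the filter only through SW13+BRG1. Where a signal was near or below the array median, the size of the fold depends on how low signals are treated. With 16 added to every signal before taking log2, the line differences without UV became 4.26 for PLAU, 3.06 for MMP2, -3.84 for MMP3 and -5.97 for MMP10. With UV they became 3.50, 3.09, -3.54 and -6.23. All 4 genes remained called under this setting.

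UV did not move the 10 genes past the rule in either line. In SW13+BRG1 cells 0 of 10 were called by limma, where 0.535% of all tested genes were called higher and 6.27% lower; 3 of the 10 had an unadjusted p under 0.05, and the methods' t-test with the 2-fold threshold gave 0. In SW13+vector cells 0 of 10 were called, where 0.528% were called higher and 3.93% lower; 0 had an unadjusted p under 0.05, and the methods' t-test with the 2-fold threshold gave 0. The UV effect in SW13+BRG1 minus that in SW13+vector was called for 0 of 10 genes, where 0.0651% of all tested genes were called, and for 0 at an unadjusted p under 0.05.

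The 3 genes with a low unadjusted p in SW13+BRG1 cells were MMP3, TIMP1 and TIMP2. For TIMP2 the UV difference was 0.39 on the log2 scale (SE 0.11, adjusted p = 0.0355), which is 1.31-fold and under the threshold of 2; scaling the arrays on their hybridization controls turned it to -0.005. For MMP3 it was 0.67 (SE 0.29, adjusted p = 0.151) and for TIMP1 0.65 (SE 0.29, adjusted p = 0.174). Under the same scaling on hybridization controls these became 0.28 and 0.26. UV-treated and mock-treated arrays of SW13+BRG1 did not overlap for 5 of the 10 genes, where 37.1% of all tested genes did not; the 5 were these 3 with MMP9 and PLAU. In SW13+vector cells they did not overlap for 1 of the 10, MMP1, where 32.2% of all tested genes did not.

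PLAU was the gene whose UV-treated SW13+BRG1 arrays all lay below the mock-treated ones. Its log2 UV difference in SW13+BRG1 was -0.54 (95% interval -1.85 to 0.78) by one probe set and -0.39 (-1.59 to 0.81) by the other. In SW13+vector it was 0.68 and -0.62, of opposite sign in the 2 probe sets. For the remaining genes the UV differences in SW13+BRG1 were 0.49 for MMP1, 0.59 for MMP9, 0.19 for MMP2, 0.07 for MMP10, -0.06 for TIMP3 and -0.49 for MMP14, and scaling on hybridization controls turned those of MMP2 and MMP10 negative. In SW13+vector all 10 brightest probe sets lay between 0.02 and 0.68, and 6 of them were below 0 under that scaling. That scaling moved the median of all tested probe sets to -0.45 in SW13+BRG1 and to -0.27 in SW13+vector.

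Across the 12 arrays the 6 called genes fell into 2 sets by Pearson correlation of log2 signals, given as a description, since the 2 lines set most of it. MMP3 correlated with MMP10 at 0.973, MMP1 with MMP3 at 0.938 and MMP1 with MMP10 at 0.888. MMP2 correlated with TIMP2 at 0.981, TIMP2 with PLAU at 0.952 and MMP2 with PLAU at 0.950. TIMP1 correlated at 0.647 with MMP2 and at 0.620 with TIMP2. Of the 13833 other genes, FAM171B was most like MMP10 (0.996), MFAP5 most like MMP3 (0.993) and CENPW most like MMP1 (0.983). The same measure placed PARP12 nearest to MMP2 (0.993), KRT18 nearest to TIMP2 (0.997), DCLK1 nearest to PLAU (0.989) and SHC1 nearest to TIMP1 (0.974). For MMP9, MMP14 and TIMP3 no gene went past 0.868.

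MMP10, MMP1 and MMP3 are neighbors in a cluster of 9 MMP genes on the long arm of chromosome 11, and the members around them were dim. In the gene order of GRCh38.p14 the cluster reads MMP7, MMP20, MMP27, MMP8, MMP10, MMP1, MMP3, MMP12 and MMP13. Of these 6 were tested, and 4 were called lower and 0 higher in mock-treated SW13+BRG1 cells, and 3 lower and 0 higher after UV, where 5.09% and 6.61% of all tested genes were lower. The fourth was MMP12 (macrophage elastase), at 12 ± 6.71 in mock-treated SW13+BRG1 cells and 46.8 ± 12.3 in mock-treated SW13+vector cells, a log2 fold change of -2.08 (SE 0.49, adjusted p = 0.00795), and of -0.90 (adjusted p = 0.22) with UV. MMP12 reached the array median on 1 of 6 SW13+BRG1 arrays, and with 16 added to every signal the value without UV was -1.17. MMP7 (matrilysin), whose upstream window is printed above beside that of MMP10, averaged 22.9 ± 7.61 in mock-treated SW13+BRG1 and 17.5 ± 4.21 in mock-treated SW13+vector cells, with a log2 fold change of 0.37 (SE 0.50). MMP8, MMP13 and MMP20 were not tested, with means of 0.86 to 23.4 in the 4 groups.

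On either side of the cluster most differences were below 0, and 1 gene was called. Without UV 9.05% of all tested genes were called higher and 5.09% lower, and of 5 tested flanking genes 0 were higher and 1 was lower. This was PDGFD, a growth factor of the PDGF family and the farthest of those examined, at 36.4 ± 8.79 in mock-treated SW13+BRG1 cells and 497 ± 80.2 in mock-treated SW13+vector cells (log2 fold change -3.79, adjusted p = 3.82e-07). DCUN1D5, the next gene after MMP13 among those examined, was at -0.65 (adjusted p = 0.000257) without UV and -0.997 (adjusted p = 6.64e-06) with UV. It passed the p threshold and fell short of the fold threshold. BIRC2, on the MMP7 side, was at -0.71 (adjusted p = 0.0594) without UV and -0.97 (adjusted p = 0.011) with UV, also under the fold threshold. TMEM123, on the same side, was at 0.28 without UV and 0.30 with UV. DYNC2H1, between DCUN1D5 and PDGFD, was at -0.14 and 0.27. None of these was called. BIRC3 was not analysed here.

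**Figure D3:**
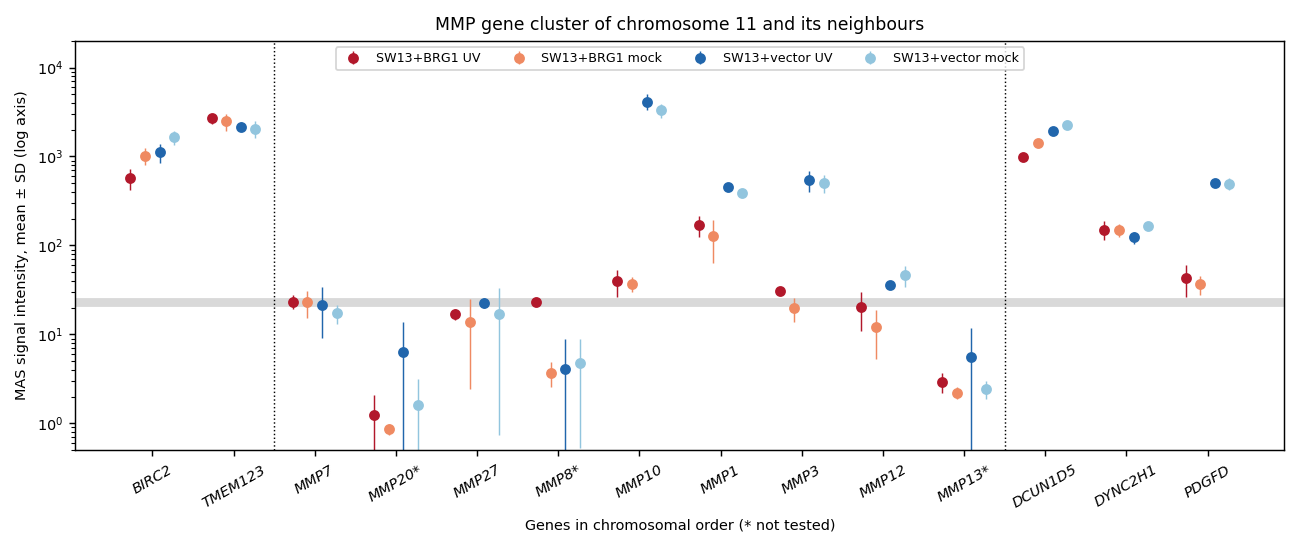
Mean signal with SD, on a log axis, of the genes of the chromosome 11 MMP cluster (between the dotted lines) and its flanking genes in the 4 groups, in chromosomal order and not to scale; asterisks mark genes that were not tested, the gray band spans the array medians, and SD bars that pass the lower axis are cut. MMP10, MMP1, MMP3 and PDGFD are lower in SW13+BRG1 under both treatments, while MMP7 and MMP27 lie near the array median in all 4 groups.

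Among 16 further MMP genes on the array, 10 were tested, and most were not called. In these and the lists that follow, a gene that reached the array median on under 3 of 6 arrays of a line passed the filter only through the other line, and the size of its fold rests on dim signals. For such genes the log2 fold change with 16 added to every signal is also given. MMP24 (a membrane-type MMP) averaged 43 ± 8.55 in mock-treated SW13+BRG1 and 7.73 ± 3.64 in mock-treated SW13+vector cells, a log2 fold change of 2.56 (adjusted p = 0.00296), and of 4.3 (adjusted p = 4.69e-05) with UV. It passed only through SW13+BRG1 and was at 1.32 and 2.27 with 16 added. MMP16 (another membrane-type MMP) was lower in SW13+BRG1 by its brightest probe set. The log2 fold change was -1.17 (adjusted p = 0.0279) without UV and -1.55 (adjusted p = 0.00488) with UV. This probe set also fell after UV in both lines. It averaged 20.3 ± 8.57 in UV-treated and 79 ± 11.2 in mock-treated SW13+BRG1 cells, and 55.8 ± 9.97 in UV-treated and 179 ± 36.4 in mock-treated SW13+vector cells. Its log2 UV difference was -2.06 (adjusted p = 0.00161) in SW13+BRG1 and -1.67 (adjusted p = 0.00896) in SW13+vector. Of the 4 tested probe sets of MMP16 only 1 was called in each line comparison and in each UV comparison. In the line comparison the further MMPs gave 1 higher and 2 lower of 10 without UV, with a median log2 difference of 0.19, and 1 and 1 with UV, with a median of -0.59, beside medians of 0.00 and -0.02 over all tested genes, of which 9.05% were higher and 5.09% lower without UV and 9.56% and 6.61% with UV.

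In the plasminogen system, 2 of 7 tested genes were called higher and 1 lower in SW13+BRG1, with and without UV, where the shares of all tested genes were 9.05% and 5.09% without UV and 9.56% and 6.61% with UV. The list's median log2 difference was 0.59 without UV and 0.57 with UV, beside 0.00 and -0.02 over all tested genes. SERPINE2 (protease nexin-1, an inhibitor of urokinase and thrombin) averaged 7682 ± 209 in mock-treated SW13+BRG1 cells and 90.5 ± 26.2 in mock-treated SW13+vector cells, a log2 fold change of 6.45 (SE 0.20, adjusted p = 4.56e-10). PLAT (tissue plasminogen activator) averaged 117 ± 9.27 in mock-treated SW13+BRG1 and 9.61 ± 11 in mock-treated SW13+vector cells, a log2 fold change of 4.66 (SE 1.16, adjusted p = 0.011), and of 2.46 with 16 added; it passed only through SW13+BRG1. F12 (coagulation factor XII) was at -1.39 (adjusted p = 0.014). PLAUR, the receptor that holds urokinase at the cell surface, was not called, at -0.44 (adjusted p = 0.661) without UV and 0.57 (adjusted p = 0.511) with UV.

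Of 12 tested genes for other inhibitors and activators of MMPs, 4 were called higher and 1 lower in SW13+BRG1, with and without UV, beside the same 9.05% and 5.09% of all tested genes without UV and 9.56% and 6.61% with UV. Of the 4 higher genes 3 (THBS1, SPOCK1 and LCN2) passed only through SW13+BRG1. The median log2 difference of these 12 was 0.70 without UV and 0.63 with UV, beside 0.00 and -0.02 over all tested genes. THBS1 (thrombospondin-1, which binds MMP2 and MMP9) averaged 1013 ± 242 in mock-treated SW13+BRG1 cells and 7.55 ± 3.87 in mock-treated SW13+vector cells, a log2 fold change of 7.22 (adjusted p = 2.6e-05), or 5.43 with 16 added, and 3 of its 5 tested probe sets were called. SPOCK1 (testican-1, a matrix proteoglycan) was at 5.89, CLDN1 (a tight junction protein) at 4.79 and LCN2 (lipocalin-2, which binds MMP9) at 1.82. With 16 added SPOCK1 was at 4.2 and still called, and LCN2 was at 0.88 and no longer called. TFPI2, a secreted inhibitor of plasmin and of other serine proteases, was the exception. It averaged 479.8 ± 42.8 in mock-treated SW13+BRG1 cells and 3394 ± 49.8 in mock-treated SW13+vector cells, a log2 fold change of -2.83 (SE 0.12, adjusted p = 3.91e-09). The probe sets of RECK (a membrane-anchored MMP inhibitor) disagreed. The brightest was at 0.06 without UV and not called, while of the 4 tested, 2 others passed the rule as higher, with and without UV. BSG (an inducer of MMPs) and FURIN (which activates MMP14) were not called, at 0.49 and 0.45 without UV.

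ADAM and ADAMTS proteases, which shed membrane proteins or cut proteoglycans, gave 3 higher and 0 lower of 19 tested genes without UV and 4 and 0 with UV, beside 9.05% and 5.09% of all tested genes without UV and 9.56% and 6.61% with UV. ADAM12 averaged 624 ± 9.19 in mock-treated SW13+BRG1 cells and 7.15 ± 1.94 in mock-treated SW13+vector cells, a log2 fold change of 6.48 (SE 0.39, adjusted p = 8.18e-08). ADAMTS15 was at 5.8 and ADAM19 at 1.88. ADAM12 and ADAMTS15 passed only through SW13+BRG1, and with 16 added they were at 4.79 and 3.59. ADAM15 was called with UV, at 1.48 (adjusted p = 0.044), and not without UV, at 0.38; the difference of UV effects, which tests these 2 values against each other, was not called. The list's median log2 difference was 0.10 without UV and -0.03 with UV, beside 0.00 and -0.02 over all tested genes.

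Among cathepsins and other secreted proteases and their inhibitors, 8 of 21 tested genes were called higher and 1 lower in SW13+BRG1 without UV, and 11 and 1 with UV, beside 9.05% and 5.09% of all tested genes without UV and 9.56% and 6.61% with UV. The median log2 difference was 1.02 without UV and 1.13 with UV, beside 0.00 and -0.02 over all tested genes. Of the higher genes 2 without UV and 3 with UV passed only through SW13+BRG1. PRSS23, a secreted serine protease, averaged 3012 ± 323 in mock-treated SW13+BRG1 cells and 3.34 ± 2.0 in mock-treated SW13+vector cells. It was below the array median on all 6 SW13+vector arrays, and its log2 fold change was 10.00, or 7.29 with 16 added. HTRA1 (a secreted serine protease), the other gene that passed only through SW13+BRG1 without UV, was at 2.4, or 1.56 with 16 added, and CTSB (cathepsin B, a lysosomal cysteine protease) at 1.77 (adjusted p = 1.95e-08), with all 5 CTSB probe sets called higher under both treatments. CTSC (cathepsin C) was at 1.57, with 2 of its 4 tested probe sets called. PI15 (a secreted protein named as a peptidase inhibitor) was lower, at 11.8 ± 9.6 in mock-treated SW13+BRG1 and 3175 ± 149 in mock-treated SW13+vector cells (log2 fold change -8.67, adjusted p = 2.35e-06, or -6.91 with 16 added); it passed only through SW13+vector. TLL1, a procollagen-processing protease, was called with UV, at 4.62 or 1.66 with 16 added, and not without UV, at 2.39; it passed only through SW13+BRG1, and the difference of UV effects was not called (2.23, SE 1.24).

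**Figure D4:**
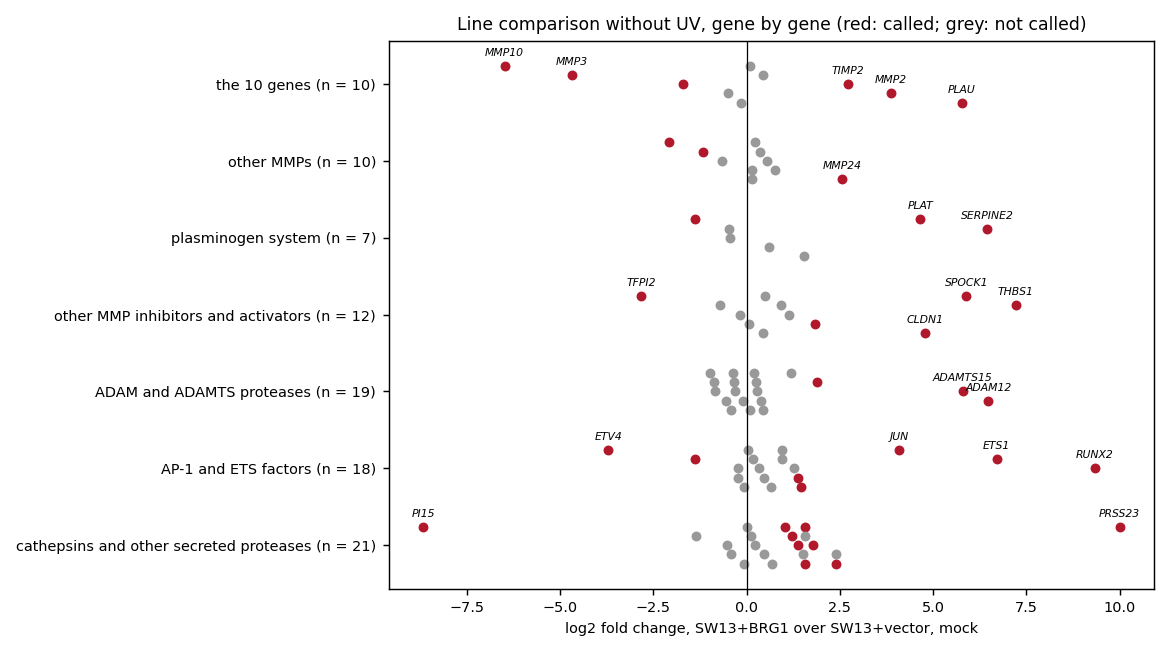
Log2 fold change of SW13+BRG1 over SW13+vector without UV for the 10 genes and for the tested genes of 6 wider lists; each point is a gene by its brightest probe set, red points were called and gray points were not, and the vertical spread within a row carries no value. The called genes reach from -8.67 for PI15 to 10.0 for PRSS23, each with the dimmer line below the array median on all 6 arrays.

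Transcription factors of the AP-1, ETS, RUNX and NF-kB families are known to bind promoters of MMP and PLAU genes in many cell types. Of 18 tested, 5 were called higher and 2 lower in mock-treated SW13+BRG1 cells, and 6 and 2 after UV, beside 9.05% and 5.09% of all tested genes without UV and 9.56% and 6.61% with UV. ETS1 averaged 389 ± 34.3 in mock-treated SW13+BRG1 cells and 6.3 ± 7.66 in mock-treated SW13+vector cells, and RUNX2 averaged 568 ± 14.7 in the mock-treated SW13+BRG1 cells and 1.57 ± 1.95 in the mock-treated SW13+vector cells. Both passed only through SW13+BRG1, with log2 fold changes of 4.23 and 5.06 with 16 added. On the log2 scale JUN was at 4.08 and ETS2 at 1.46. ETV4 (an ETS factor) was lower in SW13+BRG1, at -3.71 (adjusted p = 0.00131, or -2.31 with 16 added, and passed only through SW13+vector), as was FOS, at -1.39 (adjusted p = 0.0013). Whether any of these factors acts on the 10 genes was not tested.

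JUN, the partner of FOS in AP-1, moved with UV in a way that differed between the lines. It averaged 873 ± 147 in UV-treated and 2816 ± 588 in mock-treated SW13+BRG1 cells, and 293 ± 16.1 in UV-treated and 164 ± 4.0 in mock-treated SW13+vector cells. The UV difference was -1.68 in SW13+BRG1 and 0.84 in SW13+vector, and the difference between them of -2.52 was called (SE 0.23, adjusted p = 0.00199). These values are of the brightest probe set, whose 0.84 in SW13+vector was under the fold threshold. Of 4 tested JUN probe sets 2 were called lower after UV in SW13+BRG1 and 1 higher in SW13+vector. ATF3 rose after UV in SW13+BRG1 by 3.55 (adjusted p = 1.76e-05), and was at 0.97 in SW13+vector (adjusted p = 0.0615). The difference of these UV effects was 2.58 with an adjusted p of 0.0729. FOSB rose after UV by 3.95 in SW13+BRG1 and by 3.09 in SW13+vector, and FOS rose by 1.11 in SW13+BRG1 and by 1.27 in SW13+vector. FOSB averaged only 3.09 in mock-treated SW13+BRG1 cells and 3.60 in mock-treated SW13+vector cells, below the array medians. It passed the filter only through UV-treated arrays, so the size of its rise rests on dim signals. None of the 10 genes was called in any UV comparison of the same arrays.

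Markers of other cell types were compared because fibroblasts and blood cells make several of these proteases. Of 4 tested fibroblast markers 1 was called higher (COL1A1, a chain of type I collagen, 2.18) and 1 lower (LUM, which encodes lumican, -3.14) in mock-treated SW13+BRG1 cells. Of all tested genes 9.05% were called higher and 5.09% lower in this comparison. The summed signal of the 6 fibroblast markers was 1226 to 1590 on the SW13+BRG1 arrays and 1439 to 2131 on the SW13+vector arrays. Of the 4 blood markers PTPRC was called lower (-4.07, or -2.54 with 16 added, and passed only through SW13+vector), with 7.07 ± 1.31 in mock-treated SW13+BRG1 cells and 123 ± 41.4 in mock-treated SW13+vector cells. The summed signal of the 4 blood markers, PTPRC included, was 34.7 to 68.0 on the SW13+BRG1 arrays and 102 to 185.5 on the SW13+vector arrays. In mock-treated SW13+vector cells PTPRC alone made up most of that sum. CD14 and CD3E reached the median too rarely to be tested. The 4 endothelial markers summed to 46.2 to 87.2 on the SW13+BRG1 arrays and 39.9 to 72.5 on the SW13+vector arrays. The part of other cell types in the line differences was not tested.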

How the data were processed

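The authors isolated total RNA with TRIZOL and the RNeasy kit, hybridized it to Affymetrix U133 Plus 2.0 arrays and scaled MAS signals to a mean of 125 on each array. The deposited values are linear signal intensities of every probe set, and gene names came from the platform annotation, updated by gene identifier. Of the probe sets 41097 belonged to 1 gene, 1801 to several, which were named for none, and 11777 to no gene. No normalization was added: log2 intensities that reached the array median on at least 3 of 12 arrays went into 1 limma fit of all 12 arrays (limma 3.58.1 under R 4.3.3) with a mean for each group and a trended variance prior. P-values were Benjamini-Hochberg adjusted over 32622 probe sets. The script was tested on simulated data. The brightest probe set stood for a gene, and the other probe sets of the 10 genes are given beside it. The number of arrays limits the precision.

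The 10 genes and the wider lists (other MMPs, the plasminogen system, other MMP inhibitors and activators, ADAM and ADAMTS proteases, AP-1, ETS, RUNX and NF-kB factors, cathepsins and other secreted proteases, the chromosome 11 MMP cluster, and adrenal cortex, fibroblast, blood and endothelial markers) were chosen with earlier results of these data known. Named are all 10 genes, up to 4 called genes of each list per direction and line comparison and up to 2 per UV comparison, taken by size of change, the genes most alike in pattern, SMARCA4 and SMARCA2. PLAUR, RECK, BSG, FURIN, MMP7, ITGAM, CD14, CD3E and the genes around the MMP cluster are named outside this rule, after their values were seen. Alternatives were other filters, scalings and low-signal treatments, the replicate number as a block, the methods' t-test, and leaving out each array.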

Additional observations from a re-analysis of the deposited data

How the results depend on the processing

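The 12 called line differences (6 genes, with and without UV) were recomputed under 27 alternatives each. Of these 324 values, 317 kept the call, 7 lost it and 0 changed direction, and 0 of the 144 fits without 1 array lost a call. All 7 losses came with the methods' t-test after Benjamini-Hochberg adjustment, which called 1 gene higher and 0 lower without UV, and 1 lower with UV, in place of 3 each. Its unadjusted form at the 2-fold threshold called 3 and 3 in both. With no fold threshold TIMP2 was added in the UV comparison of SW13+BRG1, making 1 higher in place of 0. TIMP1 joined the higher genes with UV only without the third UV-treated SW13+vector array. With 16 added to every signal, a setting extended to the wider lists after their values were seen, 69 of 71 called line differences of listed genes kept the call; LCN2 without UV (0.88) and ETS2 with UV (0.98) lost it, under the fold threshold.

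With the replicate number as a block, 3 genes were higher and 3 lower in both line comparisons, as without it, and 0 of the 10 genes changed their call in any comparison. TIMP1 with UV had an adjusted p of 0.000246 with the block, at the same 0.82 on the log2 scale. Over all tested probe sets the block moved the calls without UV to 4369, in place of 3912, and the calls for the difference of UV effects to 69, in place of 16. Arrays of the same number in different groups deviated together at correlations of 0.015 to 0.293, over 0.1 in 11 of 18 pairs. Pairs of number 3 were at 0.179 to 0.293. Of the 12 arrays 8 correlated best with their own number.

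Scaling on hybridization controls moved the split of higher and lower calls, with 1.93% of the UV calls in SW13+BRG1 higher in place of 8.81%, 4.99% in SW13+vector in place of 15.6%, and 44.5% of the line calls with UV in place of 56.3%; the calls of the 10 genes did not change. Signals around the array median limit what can be said of TIMP3, of the SW13+vector levels of PLAU and MMP2, of the SW13+BRG1 level of MMP3, and of the 8 probe sets not tested.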
